A study of Mus musculus with 8 samples.

Results

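The genes described here are 10 tubulin genes of the mouse, 5 encoding alpha-tubulins (Tuba1a, Tuba1b, Tuba1c, Tuba4a and Tuba8) and 5 encoding beta-tubulins (Tubb2a, Tubb2b, Tubb3, Tubb5 and Tubb6). They were chosen by symbol, as 10 of the 51826 genes of the count table, and all 10 passed the filter on low counts. The study set hearts of LncSync-/- mice (KO), which carry a null allele of a long noncoding RNA, beside hearts of wild-type mice (WT) at 2 ages. RNA labelled as coming from cardiomyocytes was sequenced from KO adults, WT adults, KO embryos and WT embryos, with embryos at e13.5 (counted in days from conception) and 2 libraries in each of the 4 groups. All 8 libraries share the strain label C57BL/6, no age in weeks is given for the adults, the making of the null allele and the isolation of the cells are not described, and whether the libraries of a group stem from different animals is not stated, so the p-values measure only the spread between these samples.

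Microtubules are hollow polymers of alpha- and beta-tubulin pairs, and mammals draw both partners from families of genes whose products differ mainly in an acidic tail at the end of the chain. Most alpha-tubulin tails end in a tyrosine that vasohibins remove and the ligase Ttl restores, and in the heart muscle cell microtubules that lack this tyrosine are coupled to desmin at the Z-disc and resist contraction. Cells also hold their tubulin level in check by degrading tubulin mRNA during translation, through Ttc5, when free tubulin pairs build up.

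The last 60 coding bases of Tuba1c, Tuba4a and Tuba8 are shown, 1 for each kind of ending among the 5 alpha members, because the final codon, in capitals, splits the family into genes that encode the terminal tyrosine and genes that do not, and this division ran along the same line as the change with age. They were read 5′ to 3′ from the GENCODE vM21 transcripts (GRCm38) and end with the stop codon. In Tuba1a, Tuba1b and Tuba1c the final codon encodes tyrosine, in Tuba4a it encodes glutamate and in Tuba8 phenylalanine.
Tuba1c: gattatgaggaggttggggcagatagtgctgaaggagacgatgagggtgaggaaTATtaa
Tuba4a: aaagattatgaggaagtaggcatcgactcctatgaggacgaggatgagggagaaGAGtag
Tuba8: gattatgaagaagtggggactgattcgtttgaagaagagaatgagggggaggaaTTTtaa

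Of the beta-tubulin genes, the same stretch is shown for the most abundant member, Tubb5, and for Tubb2a and Tubb3, with the final codon again in capitals, because these tails carry most of what distinguishes the beta-tubulins from each other. Tubb3 alone among these 3 ends in a lysine codon.
Tubb5: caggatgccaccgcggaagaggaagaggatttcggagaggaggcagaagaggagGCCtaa
Tubb2a: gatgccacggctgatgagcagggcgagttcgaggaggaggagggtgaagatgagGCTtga
Tubb3: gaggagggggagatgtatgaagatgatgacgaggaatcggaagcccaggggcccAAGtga

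Over the whole coding sequence the alpha-tubulin genes fall into close and distant copies. Tuba1a and Tuba1b were 98.3% identical, with 23 differing bases of 1356, and Tuba1b and Tuba1c were 98.6% identical over 1336 aligned bases. Tuba1b shared 85.7% with Tuba4a and 80.5% with Tuba8, so these are far easier to tell apart. Tubb2a and Tubb2b were 96.5% identical and Tubb5 and Tubb2a 84.7%. Counts of the close copies, Tuba1a, Tuba1b and Tuba1c on one side and Tubb2a and Tubb2b on the other, are therefore uncertain one by one, and their sums stand beside them below.

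Total counts ran from 16495084 to 20395600 per library. The 10 tubulin genes took 0.0960% to 0.139% of all counts in the adult libraries and 0.612% to 0.763% in the e13.5 libraries. Mitochondrial genes took 22.6% to 28.8% of all counts in adults and 3.21% to 4.36% at e13.5, and the part of this in the tubulin levels was not tested. CPM, the unit of level used here, are counts scaled to equal library totals after adjusting the library totals by TMM, and 3 counts, the floor used here, correspond to 0.103 to 0.207 CPM; such floors and the counting intervals cover counting error only. The summed level of 10 cardiomyocyte markers was 76212 to 98050 CPM in adults and 13307 to 36482 CPM at e13.5, and none of the 10 was at 0 in all libraries of an age. Markers of other cells were present as well: 10 erythroid genes, mostly haemoglobins, summed to 16.8 to 180 CPM in adults and 20211 to 160302 CPM at e13.5 (160302 CPM in KO e13.5 replicate 1 and at most 43932 CPM in the others), and 10 fibroblast genes to 466 to 1131 CPM in adults and 614 to 3927 CPM at e13.5. In bulk RNA, fewer cells of a type and less RNA per cell cannot be told apart, and the part of these other cells in the tubulin levels was not tested. No gene of the table carries the name LncSync, so the labels of the KO libraries were not checked by its level.

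The first question was how the tubulin genes change between the embryonic and the adult heart. Adults had less of 8 of the 10 tubulin mRNAs than e13.5 embryos and more of the other 2, Tuba4a and Tuba8, in KO and in WT alike. All 10 passed the threshold of an adjusted p below 0.05 in both genotypes (edgeR's quasi-likelihood test with Benjamini-Hochberg adjustment over 16623 genes). The background was wide: 41.4% of all genes tested were called between KO adults and KO embryos (20.5% higher, 20.9% lower) and 38.9% between WT adults and WT embryos (17.8% higher, 21.1% lower). The median log2 fold change of the 10 genes was -3.50 in KO and -2.69 in WT, against -0.15 in KO and -0.26 in WT over all genes tested.

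**Figure D1:**
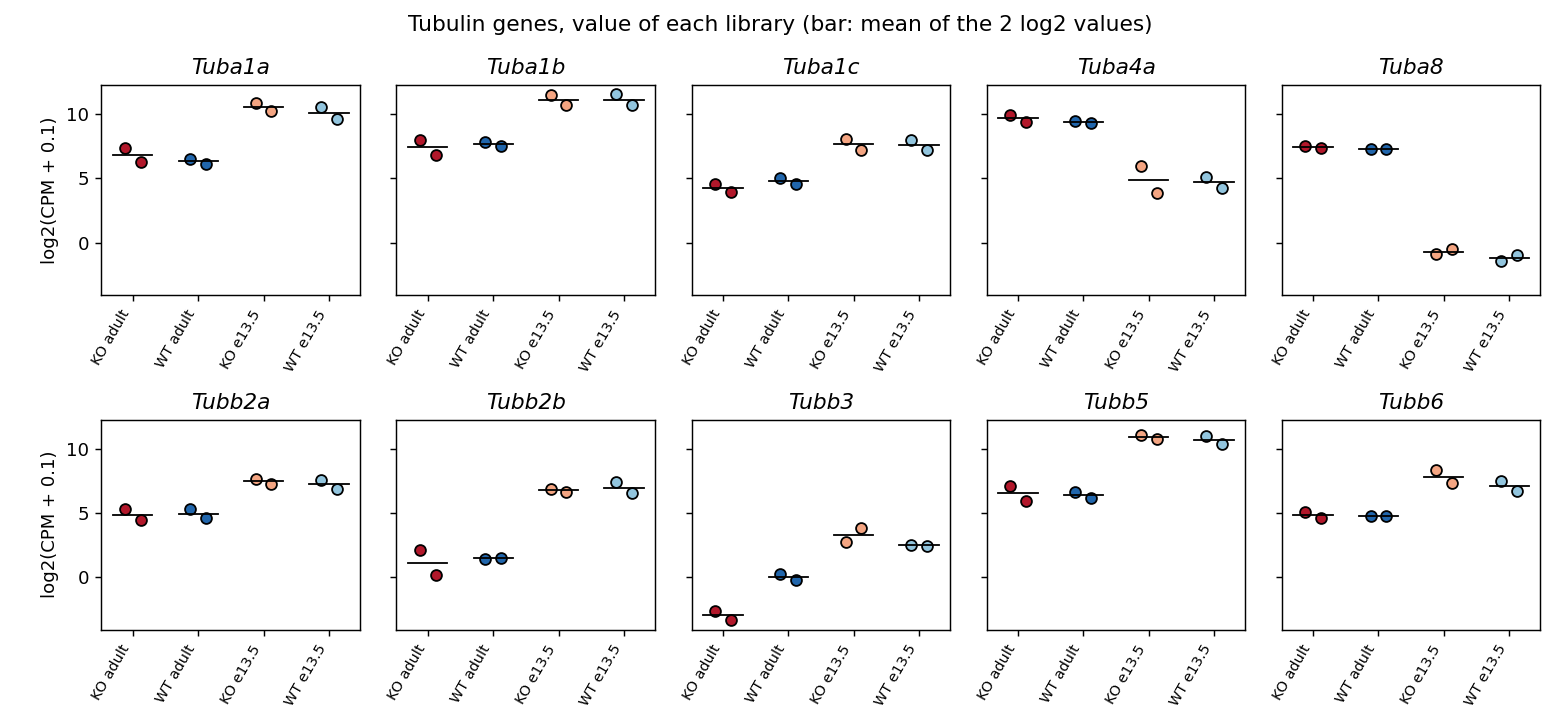
Level of each tubulin gene in each library, as log2(CPM + 0.1), with groups from left to right KO adult, WT adult, KO e13.5 and WT e13.5; points are libraries and bars the mean of the 2 log2 values. Tuba4a and Tuba8 stand higher in the adult libraries, and the other 8 genes stand higher in the e13.5 libraries.

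Tuba1b, on chromosome 15 (98931425 to 98934565, minus strand, GRCm38), encodes the widely expressed alpha-tubulin of most dividing cells. It measured 249 and 114 CPM in KO adults, 223 and 182 CPM in WT adults, 2767 and 1654 CPM in KO embryos and 2907 and 1649 CPM in WT embryos. Every adult library lay below every e13.5 library, and at e13.5 the first library of each genotype was the higher one. Tuba1b fell in adults, with a log2 fold change of -3.61 ± 0.62 (SE) in KO (adjusted p = 0.00191, edgeR) and -3.49 ± 0.61 in WT (adjusted p = 0.00238). The same 2 first libraries had the higher cardiomyocyte marker sums at e13.5, 36482 CPM in KO and 33107 CPM in WT, against 13307 CPM and 22216 CPM in the second libraries, and the part of this in the tubulin spread was not tested. They also had the lower TMM factors, 0.971 against 1.40 in KO and 1.06 against 1.44 in WT, which widens the gap in CPM. Before scaling, Tuba1b had 44263 and 41792 counts in KO embryos and 63079 and 47886 in WT embryos.

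Tuba1a lies next to it (chromosome 15, 98949837 to 98953703, minus strand) and encodes the alpha-tubulin best known from developing neurons. Its level was 159 and 74.6 CPM in KO adults, 89.5 and 69.5 CPM in WT adults, 1852 and 1189 CPM in KO embryos and 1457 and 787 CPM in WT embryos. Adult and embryonic libraries did not overlap, and KO adult replicate 1 was the highest of the adults. Tuba1a fell, with a log2 fold change of -3.70 ± 0.60 in KO (adjusted p = 0.00152, edgeR) and -3.82 ± 0.61 in WT (adjusted p = 0.00148). Tuba1c, the third close copy (chromosome 15, 99029891 to 99038110, plus strand), had 23.9 and 15.4 CPM in KO adults, 31.9 and 23.5 CPM in WT adults, 263 and 149 CPM in KO embryos and 251.5 and 144 CPM in WT embryos. It was the least abundant of the 3 in each library. The log2 fold change of Tuba1c was -3.39 ± 0.53 in KO (adjusted p = 0.00128, edgeR) and -2.84 ± 0.52 in WT (adjusted p = 0.00289). The 3 copies together, a sum that does not depend on how reads were divided among the 3, summed to 432 and 204 CPM in KO adults, 345 and 275 CPM in WT adults, 4882 and 2992 CPM in KO embryos and 4615 and 2580 CPM in WT embryos. That sum gave log2 ratios of adult to e13.5 means of -3.63 in KO and -3.54 in WT, close to the values of the single genes. Tuba1a and Tuba1b also share exon bases with a gene of the annotation, Gm49450, that is not used here (473 and 426 bases).

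Tuba4a, on chromosome 1 (75214228 to 75219865, minus strand), encodes an alpha-tubulin without the terminal tyrosine. In the deposited counts it reached 977 and 663 CPM in KO adults and 693 and 628 CPM in WT adults, against 60.7 and 14.2 CPM in KO embryos and 34.8 and 19.01 CPM in WT embryos. All adult values were above all embryonic ones, and KO e13.5 replicate 1 was the highest of the embryos. Tuba4a rose in adults by a log2 fold change of 4.46 ± 0.75 in KO (adjusted p = 0.00172, edgeR) and 4.62 ± 0.75 in WT (adjusted p = 0.00166). The kinase gene Stk16 on the opposite strand shares 1379 exon bases with Tuba4a, and whether the counting used strand is not stated. Stk16 had 29.2 and 20.7 CPM in KO adults, 24.3 and 19.97 CPM in WT adults, 57.1 and 38.7 CPM in KO embryos and 57.2 and 36.3 CPM in WT embryos, so it was far below Tuba4a in adults and above it in 3 of the 4 embryonic libraries.

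Tuba8, on chromosome 6 (121210696 to 121226854, plus strand), encodes an alpha-tubulin of muscle and testis whose chain ends in phenylalanine. It had 184 and 162 CPM in KO adults, 150.4 and 152 CPM in WT adults, 0.438 and 0.594 CPM in KO embryos and 0.277 and 0.413 CPM in WT embryos. The embryonic values rest on 7 and 15 counts in KO and 6 and 12 counts in WT. The ratio of summed counts, scaled by library size, was 325 between KO adults and KO embryos, with a 95% counting interval of 214 to 519, and 426 between WT adults and WT embryos, with an interval of 270 to 720. Tuba8 rose by a fitted log2 fold change of 8.35 ± 0.56 in KO (adjusted p = 1.38e-04, edgeR) and 8.73 ± 0.57 in WT (adjusted p = 1.69e-04), the widest fitted change among the 10 genes in either genotype. Its spread between libraries of a group was small, 173 ± 15.4 CPM in KO adults and 151 ± 1.40 CPM in WT adults (SD, n = 2 each).

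Since the same genes were high at the same age, each gene was also expressed as a share of the alpha-tubulin level per kilobase of exon, the scale on which levels of different genes can be compared. Tuba4a made up 45.8% and 49.8% of the alpha level in KO adults, 42.9% and 44.3% in WT adults, 0.623% and 0.238% in KO embryos and 0.380% and 0.371% in WT embryos. Tuba1b made up 23.0% and 16.9% in KO adults, 27.3% and 25.4% in WT adults, 56.0% and 54.8% in KO embryos and 62.6% and 63.5% in WT embryos. The leading alpha-tubulin mRNA was thus Tuba1b in each e13.5 library and Tuba4a in each adult library.

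Grouped by final codon over all alpha-tubulin genes of the table, mRNAs with a tyrosine codon held 40.1% and 30.3% of the alpha level per kilobase in KO adults, 41.9% and 38.1% in WT adults, 99.4% and 99.7% in KO embryos and 99.6% and 99.6% in WT embryos. The glutamate codon of Tuba4a accounted for most of the rest in adults, and phenylalanine codons, nearly all of them from Tuba8, for 14.1% and 19.9% in KO adults and 15.2% and 17.6% in WT adults, against at most 0.0163% at e13.5. Scaled by the longest transcript in place of all exon bases, the tyrosine share was 31.8% in KO adults, 36.7% in WT adults and 99.5% in both embryonic groups. These are shares of mRNA; protein and the tyrosine state of the protein were not measured.

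**Figure D2:**
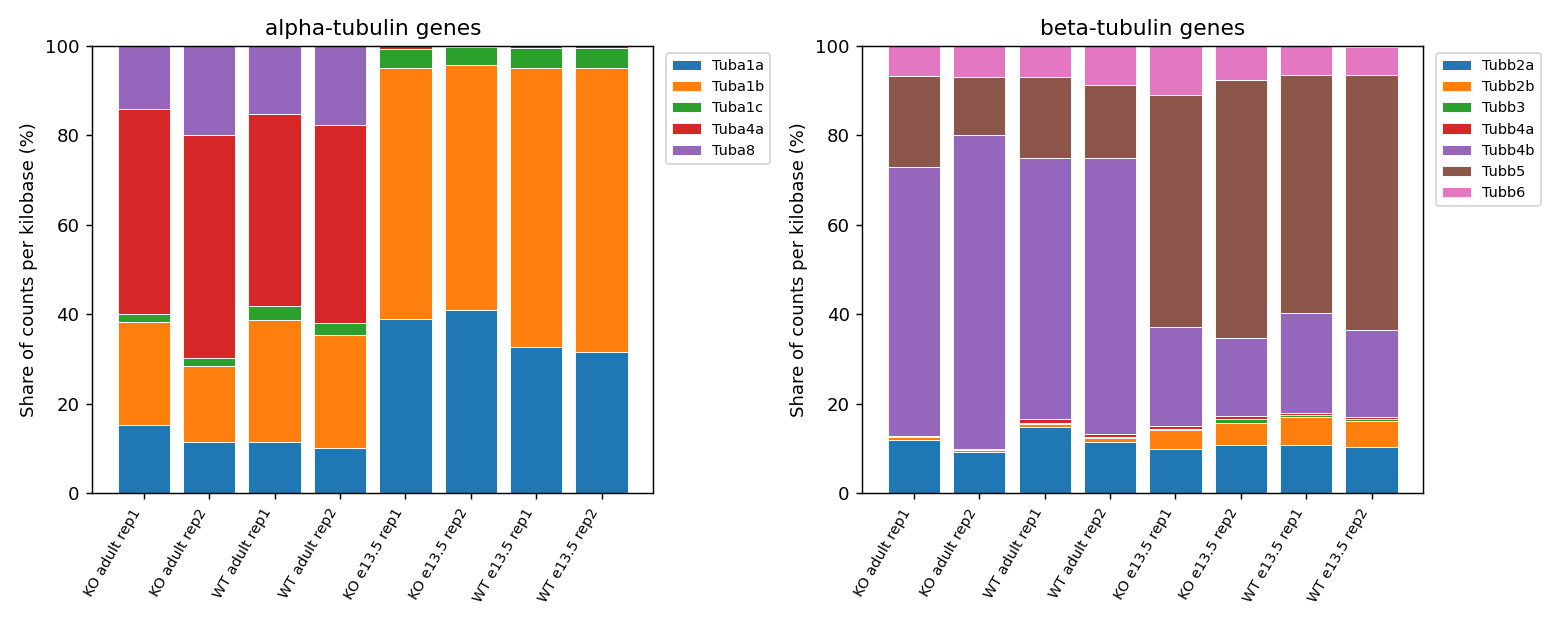
Share of each gene in the level per kilobase of exon of its family, in percent, one stacked bar per library, with alpha-tubulin genes on the left and all beta-tubulin genes of the table, members or not, on the right. In the adult bars Tuba4a (42.9% to 49.8%) and Tuba8 fill most of the alpha panel and Tubb4b (58.4% to 70.2%) most of the beta panel; in the e13.5 bars Tuba1b and Tubb5 are largest.

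The start regions of Tuba4a and Tuba8 are shown because both genes rose with age while the rest of the group fell. Sequences from 250 bases before to 50 bases after the gene start were taken from a table of RefSeq promoters (GRCm38.p6), in which 8 of the 10 genes were matched. Tuba4a spans chr1:75219245-75219544 on the minus strand and Tuba8 spans chr6:121210484-121210783 on the plus strand; capitals mark matches on either strand to GGGCGG, known as the GC box, to CCAAT, a box of many promoters, or to the E-box CANNTG.
Tuba4a: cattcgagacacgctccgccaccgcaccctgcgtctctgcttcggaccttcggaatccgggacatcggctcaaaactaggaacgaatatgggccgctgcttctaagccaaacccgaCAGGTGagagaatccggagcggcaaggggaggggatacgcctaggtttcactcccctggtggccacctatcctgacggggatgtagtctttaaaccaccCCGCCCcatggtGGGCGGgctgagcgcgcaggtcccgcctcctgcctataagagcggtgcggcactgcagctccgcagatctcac
Tuba8: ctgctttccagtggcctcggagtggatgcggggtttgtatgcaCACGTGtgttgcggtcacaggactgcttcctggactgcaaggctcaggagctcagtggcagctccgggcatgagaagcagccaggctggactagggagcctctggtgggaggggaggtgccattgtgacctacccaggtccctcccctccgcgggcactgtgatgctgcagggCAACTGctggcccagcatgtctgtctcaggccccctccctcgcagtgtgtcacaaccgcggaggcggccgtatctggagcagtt

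The Tuba4a window held 2 matches to GGGCGG and 1 to CANNTG, and that of Tuba8 held 2 matches to CANNTG and none to GGGCGG, with no overlaps between matches. Among 32851 promoters of the same length, 35.7% held GGGCGG, 37.4% CCAAT and 72.3% CANNTG, so these matches are common. The MEF2 consensus (0.557% of promoters) and the CArG box (1.63%), both known from muscle genes, were matched in none of the 8 tubulin promoters. The count is of letters in a short window and says nothing about the binding of a factor.

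All 5 beta-tubulin members fell with age. Tubb5 (chromosome 17, 35833921 to 35838306, minus strand) encodes the common beta-tubulin of dividing cells. It measured 140.1 and 62.3 CPM in KO adults, 98.9 and 71.8 CPM in WT adults, 2111 and 1712 CPM in KO embryos and 1985 and 1332 CPM in WT embryos. Adult and embryonic libraries lay far apart, and KO adult replicate 1 was the highest adult. Tubb5 fell, with a log2 fold change of -4.24 ± 0.60 in KO (adjusted p = 7.80e-04, edgeR) and -4.28 ± 0.60 in WT (adjusted p = 8.10e-04).

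Tubb2a and Tubb2b are close copies that lie next to each other on chromosome 13 (34074274 to 34078007 and 34126748 to 34130466, both minus strand) and are best known from neurons. Tubb2a had 39.5 and 21.6 CPM in KO adults, 38.9 and 24.2 CPM in WT adults, 196 and 155 CPM in KO embryos and 193 and 116.5 CPM in WT embryos. Tubb2b had 4.15 and 1.06 CPM in KO adults, 2.62 and 2.76 CPM in WT adults, 117 and 98.9 CPM in KO embryos and 166 and 94.6 CPM in WT embryos. The embryonic libraries were thus above all adult ones for both genes, by a wider margin for Tubb2b. Tubb2a fell with a log2 fold change of -2.52 ± 0.51 in KO (adjusted p = 0.00434, edgeR) and -2.30 ± 0.51 in WT (adjusted p = 0.00689), and Tubb2b with -5.37 ± 0.70 in KO (adjusted p = 5.31e-04) and -5.59 ± 0.70 in WT (adjusted p = 5.11e-04). Their sum, 43.7 and 22.7 CPM in KO adults, 41.5 and 26.9 CPM in WT adults, 313 and 254 CPM in KO embryos and 359 and 211 CPM in WT embryos, gave log2 ratios of -3.10 in KO and -3.06 in WT. The call for Tubb2a was lost in KO without KO adult replicate 2 (log2 fold change -2.14) and in WT without WT adult replicate 2 (-1.97). Both fits called fewer of all genes too.

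Tubb6 (chromosome 18, 67390717 to 67402749, plus strand) encodes a beta-tubulin that is known in skeletal muscle for its rise during regeneration. It had 34.3 and 24.3 CPM in KO adults, 27.8 and 27.7 CPM in WT adults, 323 and 160.5 CPM in KO embryos and 175 and 107 CPM in WT embryos. The adult libraries lay close together and below every embryonic one. The log2 fold change of Tubb6 was -3.04 ± 0.52 in KO (adjusted p = 0.00184, edgeR) and -2.35 ± 0.50 in WT (adjusted p = 0.00604). The WT call was lost without WT adult replicate 1 (log2 fold change -2.35) or replicate 2 (-2.32), fits that called fewer of all genes too.

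Tubb3 (chromosome 8, 123411424 to 123422015, plus strand) encodes the beta-tubulin used as a marker of neurons. It was the scarcest of the 5 beta members, with 0.0659 and 0 CPM in KO adults, 1.11 and 0.758 CPM in WT adults, 6.75 and 13.8 CPM in KO embryos and 5.76 and 5.20 CPM in WT embryos. In counts these are 1 and 0 in KO adults, 19 and 11 in WT adults, 108 and 349 in KO embryos and 125 and 151 in WT embryos. Both KO adult libraries were at or below the floor of 3 counts, and no adult library reached an embryonic one. Scaled by library size, the summed counts were 335-fold lower in KO adults than in KO embryos, with a 95% counting interval of 59.8 to 13265, and 5.75-fold lower in WT adults than in WT embryos, with an interval of 3.94 to 8.68. Tubb3 fell in both, with adjusted p = 3.94e-04 in KO and 0.0142 in WT (edgeR). The WT call was lost without WT adult replicate 1 (log2 fold change -2.84) or replicate 2 (-2.28), fits that called fewer of all genes too. Summed levels of 15 neuron, neural crest and Schwann cell markers moved the same way, at 23.7 and 16.9 CPM in KO adults, 15.4 and 14.1 CPM in WT adults, 238 and 169 CPM in KO embryos and 186 and 125 CPM in WT embryos, with Th at 0 in all 4 adult libraries. One marker, Uchl1, supplied much of the embryonic sums, with 138 and 104 CPM in KO embryos and 139 and 79.7 CPM in WT embryos. Of 11 tested markers, 6 (54.5%) were called lower in each genotype, against 20.9% of all genes in KO and 21.1% in WT. The part of such neural cells in the Tubb3 level was not tested.

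Summed over the family, the alpha members had 1592 and 1029 CPM in KO adults, 1188 and 1056 CPM in WT adults, 4943 and 3007 CPM in KO embryos and 4650 and 2599 CPM in WT embryos. The log2 ratio of adult to e13.5 means was -1.60 in KO and -1.69 in WT, smaller in size than that of the 3 tyrosine-encoding copies. Tuba4a and Tuba8 together supplied 1161 and 825 CPM of the adult KO sum and 843 and 781 CPM of the adult WT sum, against 61.1 and 14.8 CPM in KO embryos and 35.1 and 19.4 CPM in WT embryos. The beta members summed to 218 and 109 CPM in KO adults, 169 and 127 CPM in WT adults, 2754 and 2140 CPM in KO embryos and 2525 and 1655 CPM in WT embryos. Their log2 ratio was -3.90 in KO and -3.82 in WT, and no member of the beta group ran the other way.

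Much of the adult beta-tubulin lay outside the 10 genes. Tubb4b, a widely expressed beta-tubulin of the same family, had 262 and 212 CPM in KO adults, 200 and 170 CPM in WT adults, 569 and 324 CPM in KO embryos and 526 and 282 CPM in WT embryos. Its age difference did not pass the threshold, with a log2 fold change of -0.91 ± 0.49 in KO (adjusted p = 0.153, edgeR) and -1.13 ± 0.49 in WT (adjusted p = 0.0921). Per kilobase it made up 60.1% and 70.2% of all beta-tubulin in KO adults and 58.4% and 61.8% in WT adults, against 22.3% and 17.4% in KO embryos and 22.5% and 19.3% in WT embryos. Tubb5 held 20.2% and 12.9% in KO adults and 18.1% and 16.4% in WT adults, against 51.9% and 57.8% in KO embryos and 53.2% and 57.2% in WT embryos. Tubb5 therefore led the beta family at e13.5 and Tubb4b in adults. With all beta genes of the table in the sum, the log2 ratio of adult to e13.5 was -2.86 in KO and -2.90 in WT.

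Of the 10 tubulin genes outside the group, 7 were tested, and 4 (57.1%) fell with age in both genotypes, against 20.9% of all genes in KO and 21.1% in WT. These were Tubb4a, Tubb1, the beta-tubulin of platelets, Tubg1, which encodes the gamma-tubulin that nucleates microtubules, and Tube1, the epsilon-tubulin of centrioles. Tubb4a had log2 fold changes of -3.81 in KO (adjusted p = 0.00123, edgeR) and -2.25 in WT (adjusted p = 0.0110), and Tube1 of -3.28 in KO (adjusted p = 0.00296) and -3.25 in WT (adjusted p = 0.00343). Tubg1 had -2.20 in KO (adjusted p = 0.0176) and -1.97 in WT (adjusted p = 0.0281). Tubb1 was at 0 counts in the adults and at least 10.8-fold lower in KO adults and 13.1-fold lower in WT adults than at e13.5, with the WT or KO adults set at 3 counts per group.

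Ordered by level per kilobase (CPM per kilobase of exon), Tuba4a led the 10 genes in adults with 170 to 264 over the 4 libraries and no overlap with the next. Tuba1b (60.7 to 133), Tuba8 (66.4 to 81.3) and Tuba1a (38.5 to 88.2) followed and overlapped each other, and Tubb5 (18.7 to 42.1) and Tubb2a (13.4 to 24.6) overlapped as well. These are ranges over libraries: within each adult library Tuba1b was above Tuba1a and Tubb5 above Tubb2a. Tubb6 (9.98 to 14.1), Tuba1c, Tubb2b (0.462 to 1.81) and Tubb3 (0 to 0.592) closed the order. At e13.5 Tuba1b led with 879 to 1550, overlapped by Tuba1a with 436 to 1027, which in turn overlapped Tubb5 with 400 to 635. Within each e13.5 library Tuba1b was above Tuba1a, and Tuba1a above Tubb5. Tubb2a (72.4 to 122), Tuba1c (63.1 to 115), Tubb6 (43.9 to 132) and Tubb2b (41.2 to 72.2) formed a middle group in which neighbouring ranges overlapped. Within that group Tubb2a was above Tuba1c in each e13.5 library. Tuba4a (3.83 to 16.4), Tubb3 (2.78 to 7.39) and Tuba8 (0.122 to 0.262) were lowest at e13.5, with overlap between Tuba4a and Tubb3 and none between Tubb3 and Tuba8.

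The patterns over the 8 libraries of Tuba1b and Tubb5, the alpha and the beta member with the highest CPM at e13.5, were compared with those of 14408 protein-coding genes other than tubulins by the root mean square difference of centred log2 CPM. Closest to Tuba1b were Pmf1 and Spc24, both parts of kinetochore complexes, and Arl6ip1, with differences of 0.182, 0.183 and 0.185, against a median of 1.89 over all genes. Closest to Tubb5 were Uchl1, a ubiquitin hydrolase abundant in neurons and one of the 15 neuron and neural crest markers, Mcm6, a subunit of the replicative helicase, and Jpt2, with 0.102, 0.138 and 0.139 against a median of 2.23. Tuba1b and Tubb5 themselves differed by 0.435. The libraries of an age share depth and cell makeup, so these distances are a description.

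The second question was whether loss of LncSync altered the tubulin genes. None of the 10 was called between KO and WT embryos (0.0722% of all genes tested were), none between KO and WT adults (0.0481% were), none averaged over both ages (0.12% were), and none for the interaction of genotype and age (0% were). At an unadjusted p below 0.05, edgeR gave 0 of the 10 genes at e13.5, 1 in adults, 1 averaged over ages and 1 for the interaction, in each case Tubb3. Over all genes tested the same threshold was passed by 2.39% at e13.5, 2.27% in adults, 2.83% averaged over ages and 1.59% for the interaction. DESeq2 likewise called 0 of the 10 in each comparison. The median log2 fold change of the 10 genes was 0.32 at e13.5 and 0.02 in adults, against -0.07 at e13.5 and 0.01 in adults over all genes.

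At e13.5 the alpha genes had log2 fold changes, KO over WT, of 0.44 ± 0.54 for Tuba1a, -0.04 ± 0.56 for Tuba1b, 0.06 ± 0.48 for Tuba1c, 0.47 ± 0.65 for Tuba4a and 0.57 ± 0.50 for Tuba8. In adults the values were 0.56 ± 0.55 for Tuba1a, -0.16 ± 0.56 for Tuba1b, -0.50 ± 0.49 for Tuba1c, 0.31 ± 0.65 for Tuba4a and 0.19 ± 0.39 for Tuba8. The standard errors were as large as most of these differences, and adjusted p was 1 for each (edgeR). Tuba8 had both KO libraries above both WT libraries at each age, though at e13.5 on 22 counts in KO and 18 in WT. The alpha sum had a log2 ratio of KO to WT means of 0.13 at e13.5 and 0.22 in adults, which its libraries, overlapping at e13.5 and in adults, do not separate. Within each replicate number at e13.5, both the alpha and the beta sum in CPM were higher in KO. In replicate 1 this order depended on the TMM factors, 0.971 in KO and 1.06 in WT. As a share of all counts, alpha and beta members together took 0.747% in KO and 0.763% in WT in replicate 1. In replicate 2 the share was 0.722% in KO and 0.612% in WT. KO e13.5 replicate 1 stood apart in its erythroid sum, at 160302 CPM, beside 22851 CPM in KO replicate 2 and 43932 and 20211 CPM in WT embryos, and the part of this in the e13.5 values was not tested.

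Among the beta genes at e13.5, the log2 fold change was 0.18 ± 0.48 for Tubb2a, -0.27 ± 0.57 for Tubb2b, 0.91 ± 0.60 for Tubb3, 0.21 ± 0.52 for Tubb5 and 0.77 ± 0.48 for Tubb6, all with adjusted p = 1 (edgeR). In adults Tubb2a, Tubb2b, Tubb5 and Tubb6 lay between -0.04 and 0.25. In KO adults replicate 1 was above replicate 2 for every one of the 10 tubulin genes, and it also had the higher fibroblast, endothelial and macrophage marker sums (1131, 2558 and 630 CPM, against 658, 1334 and 337 CPM in replicate 2). Their part in the spread of the KO adults was not tested.

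**Figure D3:**
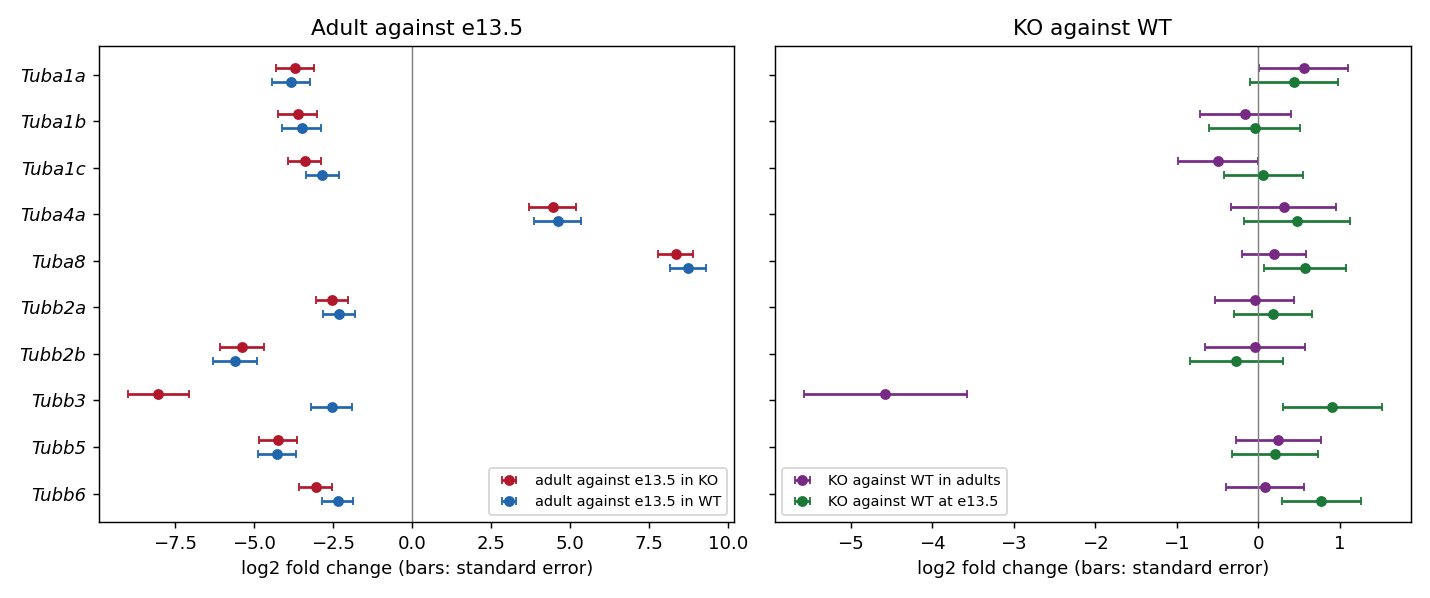
Log2 fold change of each tubulin gene with its standard error from edgeR, adult against e13.5 in KO and WT on the left and KO against WT in adults and at e13.5 on the right, on different horizontal scales. On the left all 10 genes lie away from 0, with Tuba4a and Tuba8 to the right, and on the right only Tubb3 in adults (-4.57) lies far from 0.

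Tubb3 had the widest fitted difference between genotypes among the 10 genes at both ages. In adults it had 1 and 0 counts in KO and 19 and 11 counts in WT, a ratio of summed counts 28.6-fold lower in KO with a 95% counting interval of 4.76 to 1169. At e13.5 it had 108 and 349 counts in KO and 125 and 151 in WT, or 6.75 and 13.8 CPM against 5.76 and 5.20 CPM, a ratio of 2.04 with an interval of 1.75 to 2.37. The libraries of KO and WT did not overlap in CPM at either age, and KO was below WT in adults and above it at e13.5. These intervals leave out the spread between libraries of a group. In the fit over all genes the log2 difference at e13.5 was 0.91 ± 0.60 and was not called. The adult log2 difference was -4.57 (adjusted p = 0.417, edgeR), and the interaction was -5.48 ± 1.18 (adjusted p = 1). Without the filter on low counts, the adult difference and the interaction were called by edgeR, with adjusted p = 0.0194 in adults and 0.0259 for the interaction. Over all 29957 genes that setting called 29 higher and 35 lower in adults, and 16 higher and 14 lower for the interaction. The neuron and neural crest marker sum was not lower in KO adults (23.7 and 16.9 CPM) than in WT adults (15.4 and 14.1 CPM). In GENCODE vM21, Tubb3 lies within the span of a longer gene model on the same strand, Gm20388, but shares 0 exon bases with it. The annotation behind the deposited counts is not given. Gm20388 had 456 and 462 counts in KO adults and 522 and 1 in WT adults. In embryos it had 191 and 94 counts in KO and 197 and 402 in WT. Its part in the Tubb3 counts was not tested.

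The balance between Tuba1a and Tuba1b, the more abundant of the 3 close alpha copies, was examined after their values had been seen. The log2 ratio of Tuba1a to Tuba1b per kilobase was -0.59 and -0.55 in KO adults, -1.26 and -1.33 in WT adults, -0.52 and -0.42 in KO embryos and -0.94 and -1.01 in WT embryos. Tuba1a was below Tuba1b in each library, and the KO ratios were nearer to equality than the WT ratios at both ages, with little spread within a group. The difference, KO minus WT, was 0.73 in adults and 0.50 at e13.5, on average 0.62, or 1.53-fold. No test is given, since this ratio was chosen after its KO and WT values had been seen not to overlap. The average difference of the other 2 ratios computed was -0.08 for Tuba1c to Tuba1b and -0.36 for Tubb2b to Tubb2a. With the counts of pseudogenes added to the copy they most resemble, the average difference for Tuba1a to Tuba1b was 0.57.

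Processed pseudogenes are copies of an mRNA inserted back into the genome, mostly without a promoter, and those of the alpha-tubulins had, in sum, more counts in KO than in WT libraries. Of 25 annotated tubulin pseudogenes, 17 resembled alpha genes and 8 beta genes, and 10 had no counts. The alpha pseudogenes together had 181 and 78 counts in KO adults, 22 and 9 in WT adults, 1181 and 1592 in KO embryos and 61 and 35 in WT embryos. That is 2.76% and 2.54% of the counts of Tuba1a, Tuba1b and Tuba1c in KO adults, 0.372% and 0.225% in WT adults, 1.51% and 2.11% in KO embryos and 0.0609% and 0.0467% in WT embryos. KO and WT did not overlap at either age. Gm5620 (chromosome 9, 91097149 to 91098496, plus strand, 98.2% identical to Tuba1b), chosen after its values were seen, was an exception in adults. It had 7 and 18 counts in KO adults, 21 and 9 in WT adults, 105 and 66 in KO embryos and 3 and 2 in WT embryos, and so supplied nearly all pseudogene counts of the WT adults.

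Gm3756 (chromosome 9, 31935446 to 31936800, minus strand), 98.7% identical to Tuba1b, had 20 and 13 counts in KO adults, 0 and 0 in WT adults, 318 and 423 in KO embryos and 9 and 7 in WT embryos. Gm17383 (chromosome 18, 82338462 to 82339816, plus strand), also 98.7% identical to Tuba1b, had 94 and 34 counts in KO adults, 0 and 0 in WT adults, 270 and 490 in KO embryos and 1 and 0 in WT embryos. Gm6682 (chromosome 12, 4782170 to 4783515, plus strand), nearest to Tuba1c at 97.8%, had 26 and 11 counts in KO adults, 0 and 0 in WT adults, 299 and 234 in KO embryos and 1 and 1 in WT embryos. All 3 were thus near or at 0 in WT and present in every KO library.

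Gm3756, Gm17383, Gm6682 and Gm14150 (below) were named because a group mean reached 5 CPM, which only the KO embryos did. Those means were 18.3, 18.1, 14.0 and 12.6 CPM. A higher level in KO was thus favoured by the choice, and the p-values and ratios that follow are a description. Averaged over ages, the first 3 rose in KO, with adjusted p = 0.00615 for Gm3756, 0.00433 for Gm17383 and 0.00646 for Gm6682 (edgeR). At e13.5 the ratio of counts was 56.9 for Gm3756, with a counting interval of 34.8 to 100.1, and adjusted p was 0.0217 for each of the 3. For Gm17383 the e13.5 ratio was 934 (167 to 36953) and for Gm6682 328 (90.3 to 2712), each against 1 or 2 counts in WT. In adults the KO counts were 11.5-fold (Gm3756), 44.7-fold (Gm17383) and 12.9-fold (Gm6682) higher than a floor of 3 counts over the WT group. The lower limits of the counting intervals were 8.86, 35.8 and 9.99, and edgeR called none (adjusted p = 0.145, 0.0924 and 0.218). DESeq2 called all 3 in adults, with adjusted p = 0.0175 for Gm3756, 1.35e-04 for Gm17383 and 0.0178 for Gm6682, as did edgeR without the filter on low counts (adjusted p = 2.71e-04, 4.61e-09 and 1.79e-04), and with median-of-ratios scaling edgeR called Gm17383 (adjusted p = 0.0426). A 4th, Gm14150 (chromosome 2, 151458956 to 151460309, plus strand, 98.6% identical to Tuba1b), had 33 and 1 counts in KO adults, 0 and 0 in WT adults, 182 and 351 in KO embryos and 45 and 11 in WT embryos. It was not called by edgeR at e13.5, in adults or averaged over ages, but was called by DESeq2 averaged over ages (adjusted p = 6.38e-04) and by edgeR without the filter on low counts in all 3 comparisons (adjusted p = 0.00257 at e13.5, 3.31e-04 in adults and 1.40e-08 averaged). The e13.5 calls of Gm3756, Gm17383 and Gm6682 were lost in a fit of the 4 e13.5 libraries alone (adjusted p = 0.0570 to 0.113, edgeR). They were also lost when KO adult replicate 1, KO adult replicate 2 or WT e13.5 replicate 2 was left out. These fits called fewer of all genes at e13.5 too. The fit of the 4 e13.5 libraries alone called 5 higher and 0 lower, from 10 and 2. DESeq2, and edgeR without the filter, also called more of all genes than the main fit. In adults DESeq2 called 23 higher and 31 lower, and edgeR without the filter 29 and 35, from 7 and 1. Averaged over ages these were 28 and 31, and 46 and 54, from 13 and 7. At e13.5 edgeR without the filter called 32 and 55, from 10 and 2. Reads that match several copies are divided among them by RSEM, so single pseudogene counts are uncertain.

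**Figure D4:**
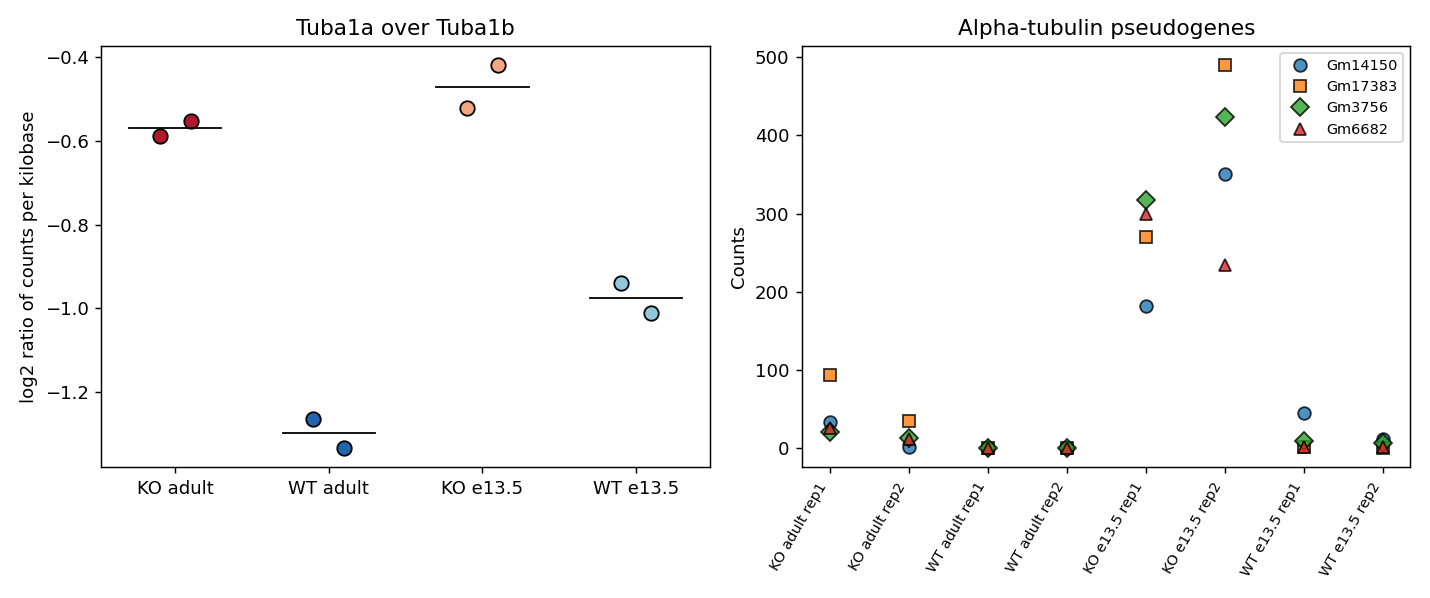
Left, log2 ratio of Tuba1a to Tuba1b per kilobase in each library (points) with the group mean (bars); right, counts of 4 alpha-tubulin pseudogenes in each library. The KO ratios (-0.59 to -0.42) lie above the WT ratios (-1.33 to -0.94), and the pseudogene counts reach 490 in KO and 45 in WT.

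Genes that make, modify and use tubulin were read from 6 further lists in the comparison of adults with embryos, and each count is set against the share over all genes tested, 20.5% higher and 20.9% lower in KO and 17.8% higher and 21.1% lower in WT. Of 22 tested genes of tubulin folding and autoregulation (chaperonin subunits, prefoldins, tubulin cofactors and Ttc5), 1 rose and 12 fell (54.5%) in KO, and 1 rose and 10 fell (45.5%) in WT. The cofactor gene Tbca fell, with log2 fold changes of -1.74 ± 0.48 in KO (adjusted p = 0.0175, edgeR) and -2.41 ± 0.49 in WT (adjusted p = 0.00486). Ttc5, which recognises nascent tubulin, fell, with log2 fold changes of -1.64 ± 0.48 in KO (adjusted p = 0.0217) and -1.89 ± 0.48 in WT (adjusted p = 0.0131). Tbcel, a tubulin-destabilising relative of cofactor E, was the member that rose, by 2.91 ± 0.50 in KO (adjusted p = 0.00203) and 2.09 ± 0.49 in WT (adjusted p = 0.00885). The median log2 fold change of the list was -1.51 in KO and -1.27 in WT.

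Of 18 tested tubulin modifying enzymes, 4 rose and 4 fell in KO (22.2% each), and 4 rose (22.2%) and 5 fell (27.8%) in WT, shares near those over all genes. Vash2, a vasohibin that removes the terminal tyrosine, was at 0.264 and 0.331 CPM in KO adults, 0.349 and 0.0689 CPM in WT adults, 16.001 and 63.6 CPM in KO embryos and 41.1 and 67.6 CPM in WT embryos, and fell, with log2 fold changes of -7.04 ± 0.92 in KO (adjusted p = 5.48e-04, edgeR) and -7.93 ± 0.96 in WT (adjusted p = 4.48e-04). Agtpbp1, which trims glutamates from tubulin tails, rose by 4.598 ± 0.65 in KO (adjusted p = 7.65e-04) and 4.81 ± 0.65 in WT (adjusted p = 6.93e-04). Atat1, the alpha-tubulin acetyltransferase, fell, with log2 fold changes of -3.19 ± 0.56 in KO (adjusted p = 0.00222) and -3.43 ± 0.57 in WT (adjusted p = 0.00183). The list as a whole had a median of 0.34 in KO and 0.37 in WT.

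Of 30 tested microtubule associated proteins, 10 rose (33.3%) and 5 fell (16.7%) in KO, and 9 rose (30%) and 6 fell (20%) in WT, against 20.5% higher and 20.9% lower in KO and 17.8% and 21.1% in WT over all genes. Mapt, which encodes tau, had 94.9 and 114 CPM in KO adults, 93.8 and 79.96 CPM in WT adults, 1.06 and 1.46 CPM in KO embryos and 0.876 and 2.10 CPM in WT embryos. Mapt rose by 6.35 ± 0.60 in KO (adjusted p = 1.93e-04, edgeR) and 5.85 ± 0.58 in WT (adjusted p = 2.65e-04), and Map7d1, a partner of kinesin-1, by 5.15 ± 0.50 in KO (adjusted p = 2.18e-04) and 5.33 ± 0.50 in WT (adjusted p = 2.52e-04). Map1b, a protein of growing axons, fell, with log2 fold changes of -4.59 ± 0.51 in KO (adjusted p = 2.97e-04) and -4.11 ± 0.50 in WT (adjusted p = 4.56e-04). Of 16 motor genes, 4 rose (25%) and 3 fell (18.8%) in KO, and 3 rose and 3 fell in WT (18.8% each), again near the shares over all genes. Among them were the kinesin gene Kif1b, which rose by 3.70 ± 0.63 in KO (adjusted p = 0.00181) and 3.04 ± 0.61 in WT (adjusted p = 0.00438), and the dynein light chain gene Dynll1, which fell, with log2 fold changes of -3.76 ± 0.68 in KO (adjusted p = 0.00258) and -3.98 ± 0.69 in WT (adjusted p = 0.00222).

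All 16 tested genes of the mitotic spindle and cell cycle fell in both genotypes, with median log2 fold changes of -6.06 in KO and -5.42 in WT. The spindle midzone gene Prc1 fell, with log2 fold changes of -5.93 ± 0.48 in KO (adjusted p = 1.62e-04, edgeR) and -4.93 ± 0.45 in WT (adjusted p = 2.29e-04), and Nusap1, a spindle microtubule binder, with -6.18 ± 0.52 in KO (adjusted p = 1.64e-04) and -5.23 ± 0.49 in WT (adjusted p = 2.51e-04). Of 8 desmin and intermediate filament genes, 3 rose (37.5%) and 1 fell (12.5%) in each genotype, against 20.5% higher and 20.9% lower in KO and 17.8% and 21.1% in WT over all genes; in a list of 8, each gene is 12.5%. Plec, the linker plectin, rose by 2.89 ± 0.46 in KO (adjusted p = 0.00136) and 2.73 ± 0.46 in WT (adjusted p = 0.00190), and Vim, vimentin, fell, with log2 fold changes of -2.66 ± 0.58 in KO (adjusted p = 0.00597) and -2.37 ± 0.57 in WT (adjusted p = 0.0102). No gene of these 6 lists was called between KO and WT at e13.5 (0.0722% of all genes tested were), in adults (0.0481% were) or averaged over ages (0.12% were). That is near the shares over all genes.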

How the data were processed

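The deposited table holds expected counts per gene for 8 libraries, made with RSEM on mm10 per the submitters' processing notes. Total RNA (200 ng) was amplified with Smart-seq2 per the labels' protocols. Not given in the sources used here are the aligner, the annotation and all versions. The values are whole numbers with differing totals and were read as unscaled counts. Of 51826 identifiers, 193 had no symbol in GENCODE vM21 and held at most 0.0184% of a library's counts.

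Counts were fitted with edgeR 4.0.16 in R 4.3.3: filterByExpr (16623 genes), TMM (factors 0.770 to 1.44), a quasi-likelihood model of 4 group means without a term for replicate (4 residual and 5.74 prior degrees of freedom), two-sided tests and Benjamini-Hochberg adjustment. The alternatives were a DESeq2 1.42.0 Wald test and further edgeR fits. Log2 values for the likeness measure used a prior count of 2. Level per length is CPM per kilobase of all exon bases. Tubulin pseudogenes were found with BLAST 2.17.0 (at least 80% identity over 300 bases). Python 3.11.15, pandas 2.3.3, Biopython 1.88 and matplotlib 3.10.9 made sequences and plots. The scripts were tested on simulated data.

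Named besides the 10 genes were pseudogenes of at least 5 CPM in a group, tested other tubulins, and up to 3 called genes of smallest p per list. Overlapping genes, Tubb3 low-count ratios and copy ratios were added later. Members and lists were chosen with earlier results of these data known. Some sequences and 1 marker gene are not reported here.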

Additional observations from a re-analysis of the deposited data

Results flagged for a closer look

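Tubb3 differed between KO and WT in opposite directions at the 2 ages: both KO libraries were below both WT libraries in adults and above both at e13.5. The test of that difference, the interaction of genotype and age, gave a log2 value of -5.48 ± 1.18 (adjusted p = 1, edgeR), so it did not pass over all genes. It rests on 1 count in KO adults.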

How the results depend on the processing

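Of 1060 values of single genes under the alternatives, 1052 kept their direction and side of the threshold, 6 lost their call, 2 gained one and 0 turned round; 62 values that were never called changed sign. The 6 lost calls are those of Tubb2a, Tubb3 and Tubb6 given above. Each was lost in a fit without 1 adult library, which leaves 1 library in that group. Those fits called fewer of all genes too. Without a filter on low counts, 1 gene, Tubb3, was called in adults and 1 for the interaction. That setting called more of all genes too. In adults it called 29 higher and 35 lower of 29957, from 7 and 1 of 16623. For the interaction it called 16 higher and 14 lower, from 0 and 0.

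Deviations of same-numbered libraries correlated at 0.55 between KO and WT embryos, 0.31 between KO and WT adults, and -0.03 to 0.16 across ages, so the numbers were not taken to pair all libraries, though those at e13.5 deviated together; fibroblast sums there were 614 and 3927 CPM in KO and 1123 and 3878 CPM in WT. With the replicate block, and with a block at e13.5 alone (chosen after the data were seen), 10 genes were called between adults and embryos in each genotype and 0 in the other comparisons. Calls of adults against embryos rose over all 16623 genes too. The block at e13.5 alone gave 5214 higher and 4770 lower in KO, from 3402 and 3481. In WT it gave 4776 and 4880, from 2954 and 3509. The replicate block gave 4003 higher and 4078 lower in KO, and 3572 and 4042 in WT. For KO against WT in adults, the block at e13.5 alone gave 10 higher and 12 lower, from 7 and 1.

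Leaving out libraries, the alpha sum's log2 ratio ranged from -0.27 to 0.61 for KO against WT at e13.5 (0.61 without WT e13.5 replicate 1) and from -2.05 to -1.21 for adult against e13.5 in WT (-1.21 without the same library). The beta sum's ranged from -0.44 to 0.56 for KO against WT in adults (-0.44 without KO adult replicate 1) and from -4.48 to -3.49 for adult against e13.5 in KO (-4.48 without the same library). For adult against e13.5, the alpha sum per kilobase gave -2.18 in KO and -2.24 in WT, and the CPM sum of all beta genes gave -2.86 in KO and -2.90 in WT; both alternatives were added after the data were seen. By longest transcript the Tuba4a share was 53.6% in KO adults, 49.1% in WT adults and 0.463% in WT embryos, and the Tubb5 share of the beta members 46.4% in WT adults and 72.6% in WT embryos. Among all beta genes, Tubb5 averaged 16.6% in KO adults, 17.3% in WT adults, 54.9% in KO embryos and 55.2% in WT embryos.

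The median log2 fold change of all genes for adult against e13.5 in KO was -0.15 with TMM, -0.26 with median-of-ratios and -0.35 with upper quartile scaling, and for KO against WT at e13.5 it was -0.07, 0.05 and 0.01. With 2 libraries a group, small differences between KO and WT could not be detected, and Tubb3 and the embryonic Tuba8 rest on few counts.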
